A study of Rattus norvegicus with 12 samples.

Results

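Inflammatory signalling genes were followed in hippocampal area CA1 of chronically epileptic rats. The set holds 8 genes of the 32662 Ensembl gene identifiers in the count tables, and all 8 had a row. They are the secreted factors Ccl2, Il1b and Tgfb1, the Toll-like receptors Tlr2 and Tlr4, the transcription factor Stat3, and the feedback inhibitors Nfkbia and Socs3. They were chosen by identifier and not by a cut on measured values, but with earlier results of these data known. Shares over all identifiers given beside them are therefore a description and not a test of the set.

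RNA was sequenced from the CA1 pyramidal cell layer of adult male Wistar rats, labelled as 45 to 50 days old. That can hardly be the age of the epileptic rats at sampling, which came 6 to 8 weeks after status epilepticus. Epileptic rats had been given kainate, an agonist of ionotropic glutamate receptors, at 5 mg/kg each hour until status epilepticus set in, then diazepam, and their brains were taken 6 to 8 weeks after that. Control rats had been injected with vehicle, saline or DMSO, and were otherwise handled alike. From each of 3 epileptic and 3 control rats, the deep sublayer, towards the stratum oriens, and the superficial sublayer, towards the stratum radiatum, were cut by laser microdissection from 20 µm frozen sections, giving 12 libraries in 4 groups of 3. Per the labels, seizures were seen or recorded in some of the treated animals, without saying which, and in no control animal. The tissue was collected as cell bodies of a layer and not as sorted cells. The identifiers of marker genes for microglia, astrocytes, vessels, blood cells and pyramidal neurons could not be paired with symbols, so the cell make-up of the libraries was not analysed here. In such bulk samples a change in the number of cells of a type and a change in RNA per cell cannot be told apart.

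Signals of this kind run from secreted factors through receptors to transcription factors. CCL2 recruits monocytes, and interleukin 1 beta and ligands of Toll-like receptors act through shared adaptors to free the factor NF-κB from its inhibitor IκBα, the product of Nfkbia, whose own transcription is driven by NF-κB. Cytokines of the interleukin 6 family act through Janus kinases on STAT3, which drives Socs3, an inhibitor of the same receptors. TGF-β1, signalling through SMAD factors, is known in brain as a regulator of glial reactivity, and microglia and astrocytes are the main brain sources named for most of these genes.

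Gene counts summed to 20623196 to 25893962 in epileptic and 16135358 to 19550582 in control libraries, so levels are given as CPM, in which each count is divided by the TMM-scaled size of its library. The epileptic animals were unlike each other. In epileptic animals 2 and 3 the share of alignments outside annotated exons was 22.3 to 26.7%, while it was 43.0% and 37.7% in the deep and superficial libraries of epileptic animal 1 and 35.8 to 44.0% in control libraries. The share that was not uniquely aligned went the other way. It was 37.9 to 45.6% in epileptic animals 2 and 3, 25.2% and 30.6% in epileptic animal 1, and 25.9 to 34.8% in control libraries. Both are shares of the same total and are not independent. The most abundant identifier held 11.0 to 22.8% of gene counts in epileptic and 8.24 to 12.97% in control libraries. Because these measures move with the animals, a fit that takes the share outside exons as a covariate is given beside the epilepsy results. In epileptic animals 2 and 3 that share lay below every control library. For these animals the fit cannot tell the share and the condition apart, and its epilepsy values rest largely on epileptic animal 1. The part of these measures in the epilepsy results was not tested beyond that fit.

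Of the 8 genes, 5 passed the filter on low counts, with 12 to 942 counts in every library, and were tested. Ccl2, Il1b and Socs3 did not pass and are given as raw counts. Tests were run with edgeR's quasi-likelihood method on all identifiers with Benjamini-Hochberg adjustment over all of them, and a gene is called where the adjusted p is below 0.05. Fold changes are log2 values with an approximate standard error (SE) derived from the test statistic. No gene of the set was called between epileptic and control rats in either sublayer. That was 0 of 5 in deep CA1, where the same fit called 0 of 14261 identifiers (0%), and 0 of 5 in superficial CA1, where it called 2 of 14321 (0.0140%). At an unadjusted p below 0.05 there were 2 of the 5 in deep CA1 against 13.7% of all identifiers, and 2 of the 5 in superficial CA1 against 18.9%. In both sublayers these were Tgfb1 and Nfkbia. DESeq2 called Tgfb1 and Nfkbia in deep CA1, where Ccl2, Il1b and Socs3 got no adjusted p and could not be called. It called 1.71% of all identifiers with an unadjusted p, a base that includes low-count ones without an adjusted p. The other DESeq2 shares have the same kind of base. In superficial CA1 DESeq2 called 3, Tgfb1, Stat3 and Nfkbia, against 4.13% of all, and gave Ccl2 and Il1b no adjusted p. Limma-voom with quality weights called Tgfb1 and Nfkbia in deep CA1, against 14.9% of all, and Nfkbia alone in superficial CA1, against 12.2%. Without epileptic animal 1, edgeR called Tgfb1 and Nfkbia in deep CA1 (3.82% of all) and Tgfb1, Stat3 and Nfkbia in superficial CA1 (9.96% of all). The fitted log2 fold change was positive for all 5 genes in both sublayers, with a median of 0.71 in deep CA1 (0.00093 over all identifiers tested) and 1.28 in superficial CA1 (0.0068 over all).

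Tgfb1 (ENSRNOG00000020652), which encodes TGF-β1, had the largest fitted change of the 5 tested genes. In deep CA1 it had 1.24, 3.27 and 10.3 CPM in epileptic animals 1, 2 and 3, against 0.794, 0.785 and 0.949 CPM in the control animals. In superficial CA1 it had 1.30, 6.48 and 25.6 CPM in the epileptic animals, against 0.717, 1.02 and 0.967 CPM in the control animals. Every epileptic library lay above every control library of its sublayer, by little in animal 1 and by most in animal 3. The log2 fold change was 2.54 in deep (SE 0.71, adjusted p = 0.226) and 3.65 in superficial CA1 (SE 1.14, adjusted p = 0.212), neither of which passed edgeR's test. Without epileptic animal 1 it passed in both, at 3.01 in deep (adjusted p = 0.0228) and 4.19 in superficial CA1 (adjusted p = 0.0293). Without epileptic animal 3 the value was 1.42 in deep and 2.13 in superficial CA1, and in the covariate fit it was 0.45 (SE 0.53) and 0.42 (SE 1.15). None of these 4 values passed. Over all alternatives the adjusted p ranged from 0.00288 to 0.806 in deep and from 0.0194 to 0.999 in superficial CA1.

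Ccl2 (ENSRNOG00000007159), the chemokine that draws monocytes, was close to the limit of detection. In deep CA1 its raw counts were 1, 8 and 3 in epileptic animals 1, 2 and 3, against 0, 0 and 1 in control animals. In superficial CA1 they were 1, 2 and 19 in the epileptic animals, against 0, 0 and 2 in control animals. Only the superficial library of epileptic animal 3 and the deep library of epileptic animal 2 held more than 3 counts. The 34 counts in epileptic against 3 in control libraries gave a ratio of 9.16 between their shares of all gene counts, with an exact 95% interval of 2.88 to 46.6 that covers counting error only. Of the 34 counts, 22 came from epileptic animal 3, without which the ratio was 4.76, and without its superficial library alone it was 4.84. Leaving out control animal 1 or 2 gave 5.97 or 6.06, without control animal 3 the controls held 0 counts, and without its superficial library alone the ratio was 23.0. With both sublayers summed per animal, the mean was 0.276 CPM in epileptic and 0.0281 CPM in control rats (exact permutation test, two-sided, p = 0.2, where 3 animals against 3 cannot give less than 0.1).

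Il1b (ENSRNOG00000004649), encoding interleukin 1 beta, was not detectable above the floor in either condition. It had 3 counts in the 6 epileptic libraries together and 2 counts in the 6 control libraries, and at most 2 in any library. A count of 0 in 1 library allows a level of up to 0.122 to 0.178 CPM, depending on its depth. At this depth no difference could be read, and no fold is given.

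**Figure D1:**
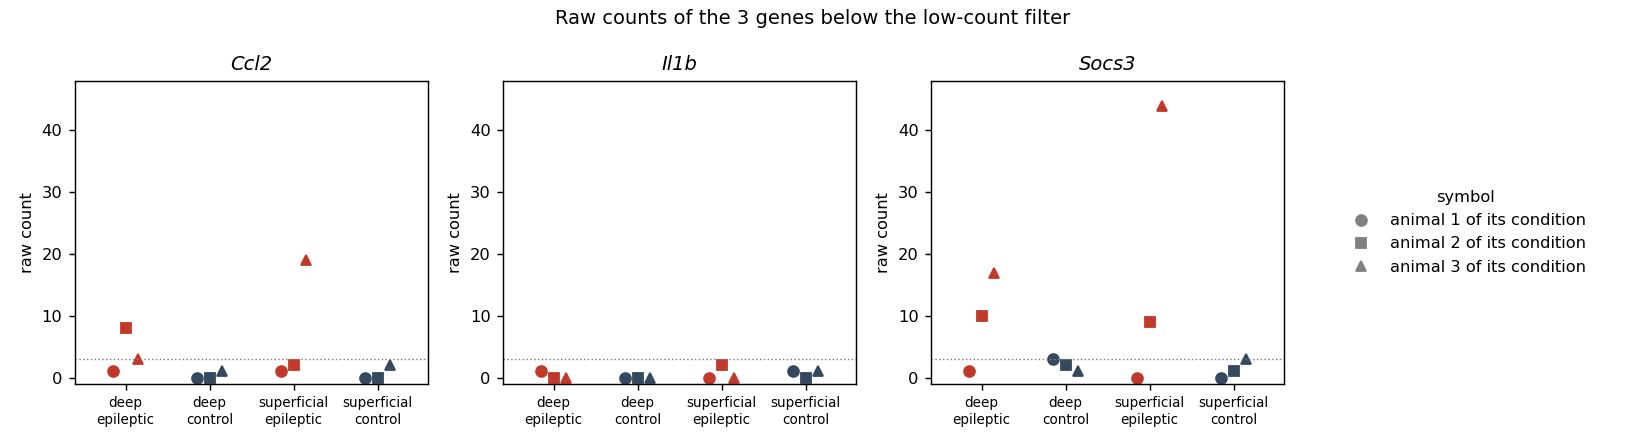
Raw counts per library (vertical axis) of the 3 genes that did not pass the low-count filter, by sublayer and condition; each point is 1 library, its shape gives the animal's number within its condition, and the dotted line marks 3 counts. Socs3 reaches 44 and Ccl2 19 counts in the superficial library of epileptic animal 3, while no library holds more than 2 counts of Il1b.

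Tlr2 (ENSRNOG00000009822), the receptor for bacterial lipoproteins that also binds molecules set free by damaged cells, was higher in the libraries of epileptic animal 3. In deep CA1 it had 2.00, 1.64 and 4.21 CPM in epileptic animals 1, 2 and 3, against 1.59, 1.52 and 1.42 CPM in the control animals. The deep groups did not overlap, but epileptic animal 2 lay just above the highest control. In superficial CA1 it had 0.883, 2.53 and 6.66 CPM in the epileptic animals, against 0.574, 1.498 and 1.396 CPM in the control animals, and epileptic animal 1 lay among the controls. The log2 fold change was 0.78 in deep (SE 0.38, adjusted p = 0.400) and 1.57 in superficial CA1 (SE 0.75, adjusted p = 0.307), by edgeR. Without epileptic animal 1 it was 0.95 in deep and 2.03 in superficial CA1 (adjusted p = 0.189 and 0.0571). Without epileptic animal 3 it was 0.27 and 0.59, and the covariate fit gave 0.29 in deep and −0.56 in superficial CA1.

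Tlr4 (ENSRNOG00000010522), the receptor for lipopolysaccharide and for the alarmin HMGB1, had the same animal standing out. Its deep level was 1.05, 1.20 and 2.27 CPM in epileptic animals 1, 2 and 3, against 0.794, 0.994 and 0.949 CPM in the control animals. In superficial CA1 it was 0.744, 1.59 and 4.49 CPM in the epileptic animals, against 0.717, 1.07 and 1.07 CPM in the control animals. Again the deep groups did not overlap and the superficial ones did, through epileptic animal 1. The log2 fold change was 0.71 in deep (SE 0.37, adjusted p = 0.426) and 1.28 in superficial CA1 (SE 0.64, adjusted p = 0.314). Leaving out epileptic animal 1 gave 0.92 in deep and 1.70 in superficial CA1 (adjusted p = 0.170 and 0.0608). Leaving out epileptic animal 3 gave 0.30 and 0.32, and the covariate fit gave 0.11 in deep and −0.42 in superficial CA1. Neither receptor was called in any epilepsy fit run with edgeR, DESeq2 or limma-voom.

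Stat3 (ENSRNOG00000019742) had nearly the same level in all control animals of a sublayer and a wide range in epileptic ones. In deep CA1 it had 13.2, 22.1 and 38.2 CPM in epileptic animals 1, 2 and 3, against 16.5, 16.9 and 17.0 CPM in the control animals. Superficial levels were 12.2, 23.4 and 44.5 CPM in the epileptic animals, against 12.8, 12.4 and 12.9 CPM in the control animals. Epileptic animal 1 lay below every control animal in both sublayers, and epileptic animals 2 and 3 lay above them. The log2 fold change was 0.55 in deep (SE 0.32, adjusted p = 0.490) and 1.10 in superficial CA1 (SE 0.46, adjusted p = 0.274). Without epileptic animal 1 the superficial change passed edgeR's test, at 1.45 (adjusted p = 0.0329), and the deep one did not, at 0.86 (adjusted p = 0.0573). Without epileptic animal 3 the values were 0.08 and 0.50, and with the covariate −0.38 in deep and −0.05 in superficial CA1.

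Socs3 (ENSRNOG00000002946), the inhibitor that STAT3 induces, was at or under 3 counts in all control libraries. In deep CA1 its raw counts were 1, 10 and 17 in epileptic animals 1, 2 and 3, against 3, 2 and 1 in control animals. In superficial CA1 they were 0, 9 and 44 in the epileptic animals, against 0, 1 and 3 in control animals. In raw counts epileptic animal 1 was within the control range of each sublayer, and all 4 libraries of epileptic animals 2 and 3 were above it. With both sublayers summed and scaled, epileptic animal 1 lay below the control animals, at 0.0235 CPM against 0.0754, 0.0791 and 0.112 CPM. The 81 counts in epileptic against 10 in control libraries gave a ratio of 6.55 between their shares of all gene counts, with an exact 95% interval of 3.38 to 14.2 for counting error only. Of the 81 counts, 61 came from epileptic animal 3, without which the ratio was 2.38 (interval 1.06 to 5.69), and 44 from its superficial library, without which it was 3.58. Over animals, with both sublayers summed, the mean was 0.665 CPM in epileptic and 0.0890 CPM in control rats (exact permutation test, two-sided, p = 0.4). Leaving out epileptic animal 1 let Socs3 pass the filter in the summed fit, where edgeR called it, along with 9.05% of all identifiers (log2 fold change 3.43, SE 0.67, adjusted p = 0.0348). In that fit the filter was met only through epileptic animals 2 and 3, with 19 and 61 summed counts, against 3, 3 and 4 in control animals. The call thus follows a selection through the group where Socs3 was high and is no separate support. In the sums Socs3 was not called in the 4 further alternatives that gave it an adjusted p, at 0.430 to 0.591. EdgeR with no low-count filter did not call it in deep (adjusted p = 0.424) or superficial CA1 (adjusted p = 0.476). Nor did DESeq2 in superficial CA1 (adjusted p = 0.176).

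Nfkbia (ENSRNOG00000007390), encoding IκBα, was the most even of the 5 tested genes among the epileptic animals. In deep CA1 it had 10.7, 14.9 and 15.9 CPM in epileptic animals 1, 2 and 3, against 7.94, 8.85 and 8.66 CPM in the control animals. Its superficial level was 11.7, 14.1 and 15.7 CPM in the epileptic animals, against 9.85, 8.40 and 8.75 CPM in the control animals. Every epileptic library, those of animal 1 included, lay above every control library of its sublayer. The log2 fold change was 0.70 in deep (SE 0.17, adjusted p = 0.168) and 0.64 in superficial CA1 (SE 0.15, adjusted p = 0.122), and neither passed. In deep CA1 it passed with the replicate number as a block (0.69, SE 0.14, adjusted p = 0.0497), a fit that pairs different animals of the 2 conditions and that called 239 identifiers (1.68%). Without epileptic animal 1 it passed in deep (0.87, adjusted p = 0.0194) and in superficial CA1 (0.75, adjusted p = 0.0286). Without epileptic animal 3 the change was 0.59 and 0.53, and in the covariate fit 0.34 and 0.43, none of them called. Over all alternatives the adjusted p ranged from 0.00333 to 0.628 in deep and from 0.0118 to 0.818 in superficial CA1.

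**Figure D2:**
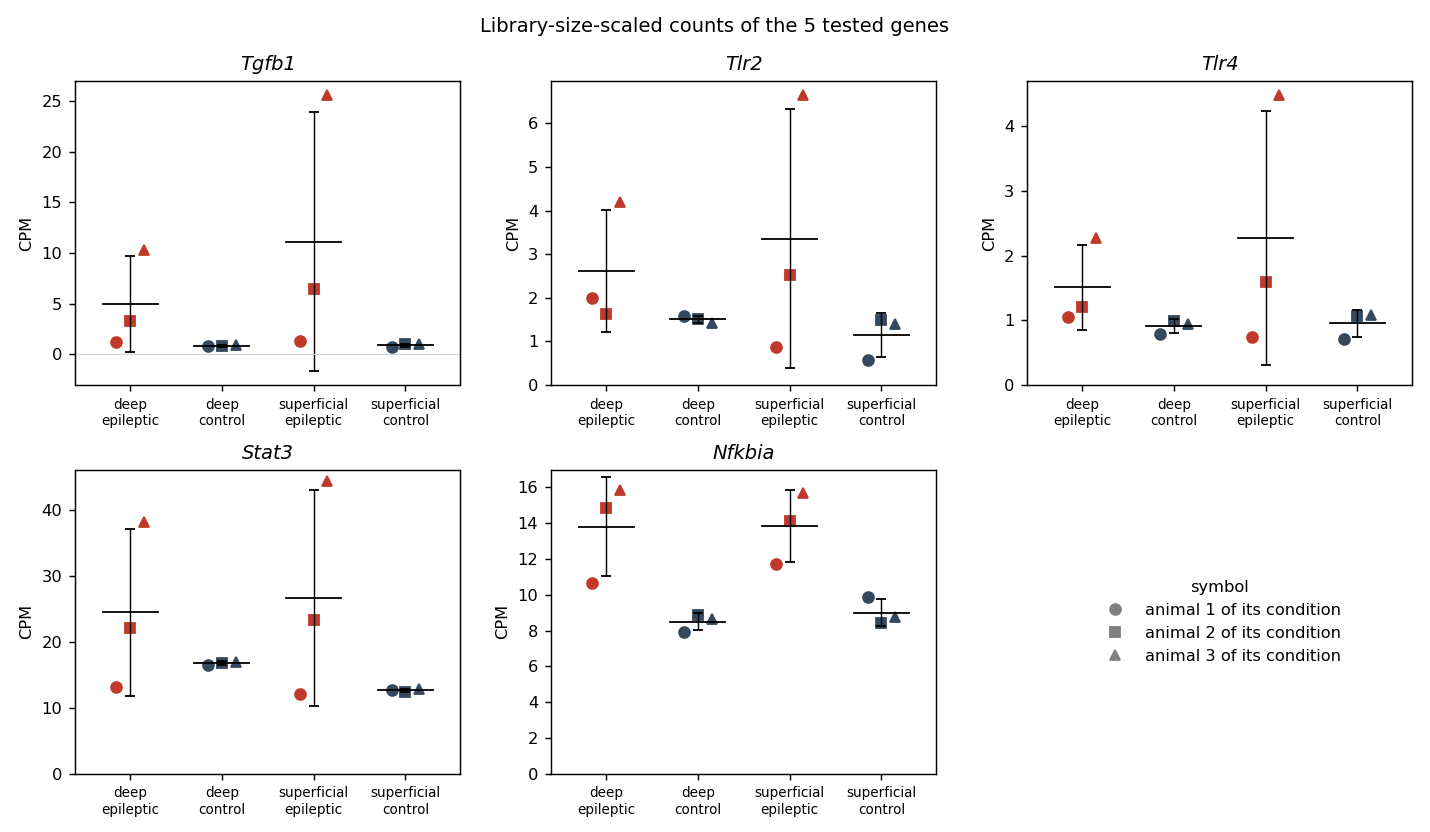
Library-size-scaled counts (CPM, vertical axes from 0 or below it where an error bar reaches lower) of the 5 tested genes in the 12 libraries; each point is 1 library, its shape gives the animal's number within its condition, and lines and bars are the mean ± SD of 3 animals. Nfkbia lies higher in all epileptic libraries than in any control library of its sublayer, and Tgfb1 reaches 25.6 CPM in the superficial library of epileptic animal 3.

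The window at the start of Nfkbia is shown because NF-κB drives its transcription, and that of Tlr2 because it held the most matches. RefSeq windows of 250 bases before to 50 after the annotated start (build GRCr8, not the build of the counts) were found by symbol for 7 of the 8 genes, all but Ccl2. They were searched on both strands for the κB consensus and for the STAT motif TTCNNNGAA. The κB consensus was present in 4 of the 7 windows, those of Tgfb1, Tlr2, Nfkbia and Socs3, and in 7.51% of all 33469 windows. The STAT motif was present in 0 of the 7 and in 8.87% of all windows. Capitals mark κB matches in the 250 bases before the start, printed 5′ to 3′. The annotated gene begins further upstream than the start used, by 154 bases for Stat3, 235 for Nfkbia, 274 for Tlr2 and 1207 for Socs3. All 250 printed bases of Tlr2 and most of those of Nfkbia thus lie inside the annotated gene. The windows of Tlr2, Nfkbia and Socs3, each with a κB match, may therefore not be their promoters. The same goes for Stat3. The absence of a STAT match from the windows of Socs3 and Stat3 may thus not hold for their promoters.
Nfkbia, chr6:78597073-78597322, minus strand: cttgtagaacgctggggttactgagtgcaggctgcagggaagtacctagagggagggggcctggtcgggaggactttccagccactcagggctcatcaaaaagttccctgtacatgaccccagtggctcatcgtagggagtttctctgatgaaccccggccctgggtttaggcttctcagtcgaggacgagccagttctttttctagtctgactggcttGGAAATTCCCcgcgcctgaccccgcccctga
Tlr2, chr2:171504558-171504807, minus strand: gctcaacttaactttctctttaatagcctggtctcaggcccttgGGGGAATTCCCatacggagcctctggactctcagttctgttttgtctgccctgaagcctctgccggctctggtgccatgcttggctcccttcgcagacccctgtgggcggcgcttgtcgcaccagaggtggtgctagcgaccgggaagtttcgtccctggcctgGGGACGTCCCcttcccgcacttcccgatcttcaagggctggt
The Nfkbia match begins 31 bases before the start. In Tlr2 a pair of overlapping matches begins 206 and 205 bases before the start, and a further match 42 bases before it. These letters are a description of the windows, and binding was not measured.

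With the reads of both sublayers summed per animal, edgeR called 0 of the 5 genes and 5 of 15398 identifiers (0.0325%), with 3 of the 5 and 18.1% of all at an unadjusted p below 0.05. DESeq2 called Tgfb1 and Nfkbia in the sums (3.92% of all), but not Stat3, which it called in superficial CA1. Limma-voom with quality weights called Nfkbia (16.1% of all), but not Tgfb1 (adjusted p = 0.0591), which it called in deep CA1. Nfkbia had 11.2, 14.5 and 15.9 CPM in epileptic animals 1, 2 and 3, against 8.95, 8.59 and 8.68 CPM in control animals (log2 fold change 0.66, SE 0.14, adjusted p = 0.119). Tgfb1 had 1.27, 5.02 and 18.6 CPM in the epileptic animals, against 0.754, 0.896 and 0.955 CPM in the control animals (log2 fold change 3.25, SE 0.95, adjusted p = 0.203). These were the only 2 of the 5 whose summed groups did not overlap, and 11.1% of all identifiers had epileptic animals all above control animals.

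**Figure D3:**
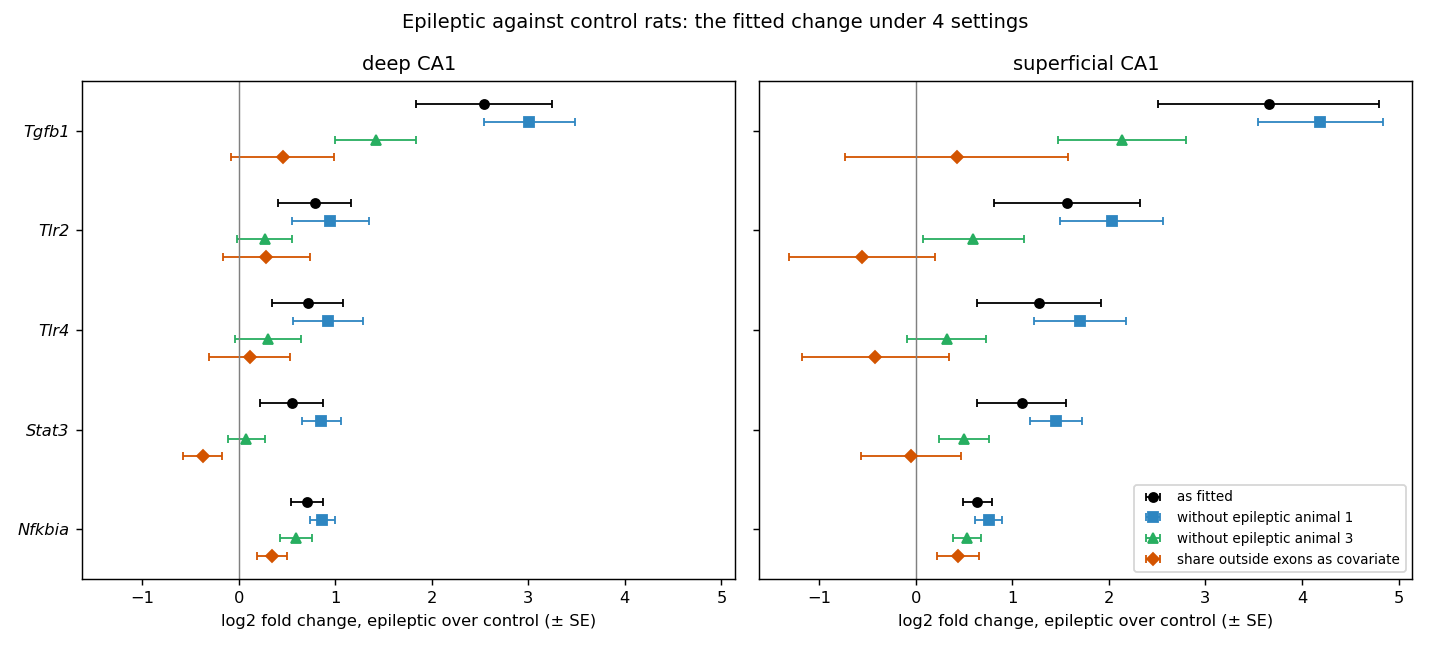
Fitted log2 fold change of epileptic over control rats (horizontal axis, bars are ± SE) for the 5 tested genes in deep and superficial CA1, as fitted, without epileptic animal 1, without epileptic animal 3, and with the share of alignments outside exons taken as a covariate. With that share as a covariate, Tgfb1 is 0.45 in deep and 0.42 in superficial CA1, and Nfkbia 0.34 and 0.43.

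The spread among epileptic animals was itself larger than among controls for all 5 tested genes in both sublayers. The highest over the lowest CPM among the 3 epileptic animals was 8.31 for Tgfb1, 2.91 for Stat3, 2.57 for Tlr2, 2.16 for Tlr4 and 1.48 for Nfkbia in deep CA1, while it was 1.03 to 1.25 among controls. In superficial CA1 the ratio was 19.7 for Tgfb1, 7.54 for Tlr2, 6.03 for Tlr4, 3.65 for Stat3 and 1.34 for Nfkbia in epileptic rats, against 1.04 to 2.61 in controls. Over all identifiers tested the median ratio was 1.31 in epileptic and 1.19 in control rats in deep CA1, and 1.30 and 1.18 in superficial CA1. A larger ratio in epileptic rats was seen for 70.5% of identifiers in deep and 69.6% in superficial CA1. The epileptic animals stood in the order 1, 2, 3 for 4 of the 5 genes in deep CA1, all but Tlr2, and for 5 of 5 in superficial CA1. That order held for 27.2% of all identifiers in deep and 24.4% in superficial CA1. All epileptic animals lay above all control animals for 4 of the 5 genes in deep CA1, against 8.82% of all identifiers, and for 2 of the 5 in superficial CA1, against 10.2%. The 5 genes share these libraries, so their common order is 1 observation on 3 animals.

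Between the sublayers, 1 gene of the set was called in epileptic rats and another in control rats. In epileptic rats 1 of the 5 was called as higher in superficial CA1, against 5.04% of all 14791 identifiers. In control rats 1 of the 5 was called as lower in superficial CA1, against 4.18% of all. The 12 libraries were fitted together, each animal having its own term, so that superficial and deep CA1 were compared within animals.

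In epileptic rats Tgfb1 was higher in superficial than in deep CA1. The superficial over deep ratio of CPM was 1.05, 1.98 and 2.48 in epileptic animals 1, 2 and 3, and 0.903, 1.29 and 1.02 in control animals 1, 2 and 3. The fitted log2 difference was 1.03 in epileptic rats (SE 0.17, adjusted p = 0.00159) and 0.09 in control rats (SE 0.33, adjusted p = 0.904). The epileptic call passed without any 1 animal, at 0.73 to 1.19, and was lost without the animal term (1.18, adjusted p = 0.844). The interaction of sublayer and condition, epileptic minus control, did not pass (0.94, SE 0.37, adjusted p = 0.715).

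Stat3 was lower in superficial than in deep CA1 of control rats, by a similar factor in each animal. Its ratio was 0.925, 1.05 and 1.16 in epileptic animals 1, 2 and 3, and 0.775, 0.736 and 0.757 in control animals 1, 2 and 3. All epileptic ratios lay above all control ratios, as the log2 differences did for 5.54% of all identifiers, and for no other gene of the set. The fitted log2 difference was 0.08 in epileptic rats (SE 0.08, adjusted p = 0.555) and −0.40 in control rats (SE 0.09, adjusted p = 0.00928). The control call was lost without any 1 control animal, at adjusted p = 0.0647, 0.0869 and 0.0769, with a log2 difference of −0.42 to −0.38, and without the animal term (adjusted p = 0.934). The difference between the conditions was 0.48 (SE 0.12, unadjusted p = 0.000881, adjusted p = 0.302) and did not pass edgeR's test, which called 0 of 14791 identifiers (0%), with 6.60% at an unadjusted p below 0.05. DESeq2 called 2 identifiers (0.00844%) and none of the set. Stat3 passed in limma-voom with quality weights (0.49, adjusted p = 0.0260), where 0.717% of all were called. It also passed in edgeR when low counts were not filtered (adjusted p = 0.0398; 0.751% of all) and when epileptic animal 1 was left out (adjusted p = 0.0314; 0.563% of all). Its adjusted p over the alternatives ranged from 0.0260 to 1. By animal, the log2 difference averaged 0.06 ± 0.16 in epileptic and −0.40 ± 0.04 in control rats (SD, n = 3 each; exact permutation test, two-sided, p = 0.1, the smallest value that 3 against 3 can give).

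The other 3 tested genes showed no called sublayer difference. Ccl2, Il1b and Socs3 did not pass the filter there, and no alternative that gave them an adjusted p called them. Tlr2 had a superficial over deep ratio of 0.441, 1.54 and 1.58 in epileptic animals 1, 2 and 3, against 0.361, 0.987 and 0.981 in control animals. For Tlr4 the ratio was 0.709, 1.32 and 1.98 in the epileptic and 0.903, 1.08 and 1.13 in the control animals. Nfkbia was near 1, with 1.10, 0.948 and 0.988 in epileptic and 1.24, 0.950 and 1.01 in control animals. The fitted log2 differences in epileptic rats were 0.24 for Tlr2, 0.47 for Tlr4 and 0.0080 for Nfkbia (SE 0.30, 0.26 and 0.09), and none passed edgeR's test.

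**Figure D4:**
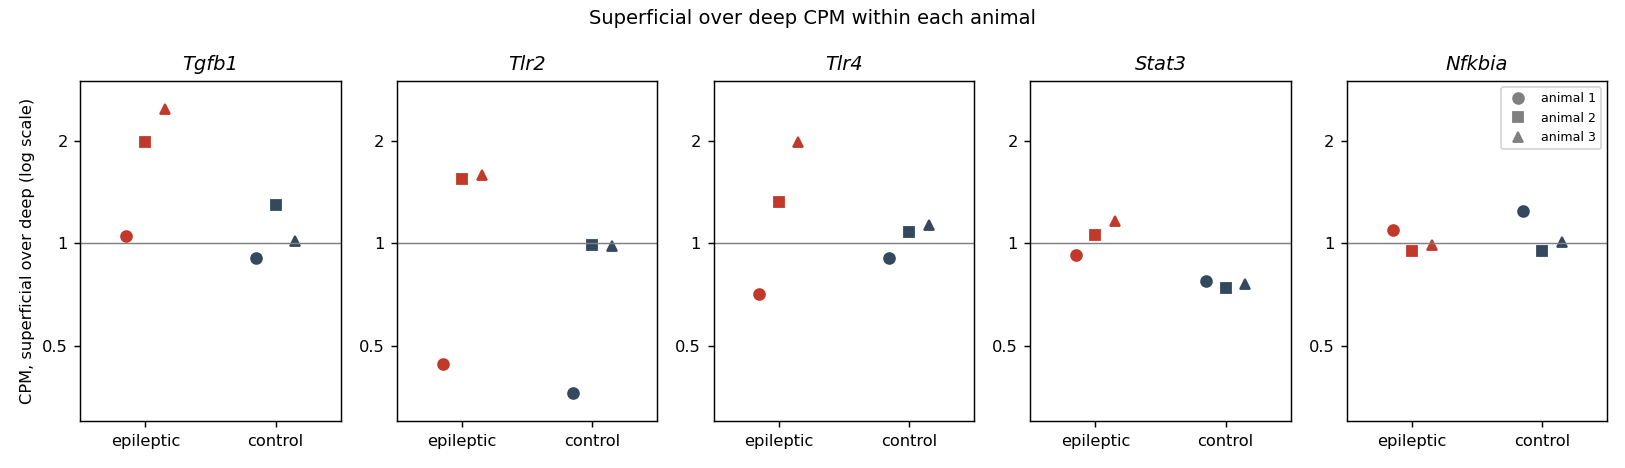
Superficial over deep CPM within each animal (vertical axis, log scale; the line marks equal levels) for the 5 tested genes, in epileptic and control rats; each point is 1 animal. The ratio of Stat3 is 0.925 to 1.16 in epileptic and 0.736 to 0.775 in control animals, and that of Tgfb1 reaches 2.48 in epileptic animal 3.

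All pairs of the 7 genes other than Il1b had a positive correlation over the 12 libraries, which come from 6 animals and share the animal differences given above, while Il1b, with at most 2 counts, had r of −0.24 to 0.01 with the others. Pearson's r of log2 CPM was 0.95 between Stat3 and Socs3, 0.94 between Tgfb1 and Tlr4, 0.94 between Tlr2 and Tlr4, and 0.92 between Tgfb1 and Stat3. Socs3 also reached 0.92 with Tlr4 and 0.91 with Tgfb1. It had at most 3 counts in control libraries and those of epileptic animal 1, so its r rests largely on epileptic animals 2 and 3. Nfkbia was least like the receptors, with r of 0.62 to Tlr2 and 0.72 to Tlr4, and most like Tgfb1 at 0.89. Among 9396 identifiers at a mean log2 CPM of at least 3, the one most like Tgfb1 was ENSRNOG00000011054 (r = 0.99). In deep CA1 it had 5.72, 12.3 and 34.0 CPM in epileptic animals 1, 2 and 3, against 4.71, 4.34 and 5.99 CPM in control animals. In superficial CA1 it had 5.72, 19.6 and 78.2 CPM in the epileptic animals, against 3.44, 3.53 and 4.57 CPM in control animals. The one most like Nfkbia was ENSRNOG00000011523 (r = 0.94). An r above 0.9 was reached with Stat3 by 185 of the identifiers searched, with Tgfb1 by 156, with Tlr4 by 124, with Tlr2 by 48 and with Nfkbia by 10. The files do not pair these identifiers with gene names.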

How the data were processed

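Total RNA of 12 libraries was sequenced, and the authors deposited raw gene counts, 1 table per library, without normalization. Per the submitters' processing notes the build was Rnor_6.0, and the tools were HTSeq 0.6.1, STAR 2.5.0c, SAMtools 0.1.19 and FastQC 0.11.3. Settings are not given in the sources used here, nor is strand use, and reads of overlapping or antisense genes may not be told apart. The tables hold 32662 identifiers and 5 tallies, which entered neither library sizes nor tests; 28.6 to 35.1% of alignments were assigned to genes. The gene table at hand pairs 0 identifiers with symbols. The symbols of the 8 genes came with their identifiers, and the lists of cell type markers and other pathway genes were not run.

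The tests used edgeR 4.0.16 under R 4.3.3, with DESeq2 1.42.0 and limma 3.58.1 as alternatives. Identifiers were kept by filterByExpr by group (minimum count 10, minimum total 15) and libraries scaled by TMM. Epilepsy was tested in the 6 deep libraries, the 6 superficial libraries and the 6 per-animal sums, and the sublayers in the 12 libraries together, each animal having a term. The SE is the absolute log2 fold change divided by the square root of the F statistic. Log2 CPM for correlations used a prior count of 2. The test was checked on simulated counts, drawn with the same spread in both conditions and no differences between animals. That check does not cover the larger spread seen among epileptic animals. Replicates of a group differed by more than sampling noise (chi-square per identifier 7.29 to 124).

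Libraries of both sublayers that carry the same number and condition were treated as 1 animal, since both sublayers were cut from each brain per the labels' protocols; their deviations from the group means had r of 0.316 to 0.770. An epileptic and a control library that share a number are from unlike animals. For numbers 1, 2 and 3 r was 0.218, 0.104 and 0.244 (deep) or 0.212, 0.0025 and 0.170 (superficial). With every deep value over 0.1, the replicate block is given beside the deep result where it changes the call. The genes and lists, and the design, were chosen with earlier results of these data known. All 8 genes are named in every comparison, and the identifier of most similar pattern is named for the 2 genes whose epileptic and control groups did not overlap in either sublayer. Alternatives were another scaling, another tool, no low-count filter, the replicate block for epilepsy and no animal term between sublayers. Further ones were another set of libraries, the share outside exons as a covariate, and leaving out each library or animal. For the count ratios of Ccl2 and Socs3 leaving out libraries or animals was chosen after seeing the data.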

Additional observations from a re-analysis of the deposited data

How the results depend on the processing

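For epilepsy, 0 of the 5 genes were called in deep, superficial and summed libraries as fitted; DESeq2 called 2, 3 and 2, limma-voom with quality weights 2, 1 and 1, and the replicate block 1, 0 and 0 (Nfkbia in deep CA1, log2 fold change 0.69). Leaving out 1 library or animal gave 0 to 2, 0 to 3 and 0 to 4 calls, all without epileptic animal 1. The 4 calls included Socs3. RLE size factors, no low-count filter and leaving out the most abundant identifier changed none of these counts. Of 200 epilepsy values under the alternatives, 196 kept their direction. The exceptions came in the fit that takes the share outside exons as a covariate, Stat3 in deep CA1 (−0.38) and Tlr2 (−0.56), Tlr4 (−0.42) and Stat3 (−0.051) in superficial CA1; the cause was not tested. In superficial CA1 that share was 37.7, 25.3 and 25.6% in epileptic animals 1, 2 and 3. Between sublayers, 1 gene was called in each condition and 0 without the animal term. Without 1 animal there were 0 to 1 in controls and 1 in epileptic rats. For the difference between the conditions, 0 were called as fitted, 1 (Stat3) with quality weights and with no filter, and 0 to 1 without 1 animal. Small uncalled sublayer values changed sign without 1 animal: in controls Tgfb1 (−0.054 to 0.20), Tlr4 (−0.0074 to 0.14) and Nfkbia (−0.029 to 0.17), in epileptic rats Tlr2 (−0.12 to 0.65), Stat3 (−0.0046 to 0.15) and Nfkbia (−0.048 to 0.053), and for the difference Tlr4 (−0.012 to 0.71) and Nfkbia (−0.16 to 0.038). Nfkbia in epileptic rats was also −0.041 with quality weights and −0.0053 in those libraries alone. Over all identifiers, calls numbered 0 in deep and 2 in superficial CA1 as fitted, against 2125 and 1746 with quality weights. For the sublayers they numbered 1484 in epileptic and 1248 in control rats, against 5 and 5 without the animal term. Depth limits Ccl2, Il1b and Socs3, and 3 animals a condition limit every epilepsy test.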
